A study of Homo sapiens with 6 samples.

Results

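A retained-intron transcript is an annotated RNA of a gene in which sequence that other transcripts of the gene splice out as intron is kept, and which has no annotated protein product. The transcripts described here were those of that type with an annotated length of at least 2500 bases, in genes that also have a protein-coding transcript, and with at least 60 estimated counts summed over the 6 libraries. The rule found 2622 transcripts in 1874 genes, of 234326 transcripts in all. They are called members below, and the genes that hold them host genes. The count minimum used the same libraries that are compared below, without regard to group. Of 5264 transcripts of this type and length in coding genes, 743 had no count in any library. The median member was 3890 bases long and had 166.3 counts over the 6 libraries together. A single member was found in 1457 host genes, 2 members in 268 and 3 or more in 149, with 11 as the most, so members of 1 gene share a transcription unit and partly share reads.

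The cells were PLC/PRF/5, a line established from human hepatocellular carcinoma and therefore 1 cell background. Control cells (3 libraries) received siGL2, the irrelevant siRNA of the study, and knockdown cells (3 libraries) received siRNAs against SLU7. Both groups grew in the same serum-containing medium, polyA RNA was taken 48 h after transfection, and siRNA leaves part of the target mRNA in place. The labels call the libraries triplicates and do not name separate cultures, so the p-values below reflect variation among these libraries, some or all of which could be technical.

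SLU7 is a spliceosome protein that acts in the second catalytic step of splicing, in which the cut end of the upstream exon is joined to the downstream exon at the 3′ splice site. An intron that is not removed stays in the RNA, and such RNA is often held in the nucleus or, once exported, degraded because it runs into an early stop codon. Intron retention is common in genes for RNA-binding proteins, where it takes part in setting how much mRNA reaches the cytoplasm.

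SLU7 itself stood at 19.1, 16.5 and 18.6 CPM (counts scaled to library size) in control cells. Knockdown cells had 9.61, 8.63 and 10.5 CPM, without overlap (log2 fold change −1.002, SE 0.18, adjusted p = 0.0139, edgeR). The adjusted p was 0.0556 without knockdown replicate 1, 0.0805 without knockdown replicate 2, and 0.152 with offsets for effective length, where the log2 change was −0.57. Depth ranged from 7736584 to 8693977 estimated counts for control libraries, and from 5191452 to 6315740 for knockdown libraries. Mitochondrial ribosomal RNA took 16.8% to 24.1% of the controls and 29.9% to 35.3% of the knockdowns, and 7SL RNA 15.4% to 22.85% and 7.95% to 10.5%. The deposited annotated length minus effective length, a measure of the fragment length used in quantification, was 141.6, 125.5 and 121.1 bases in the controls, against 141.6, 146.7 and 150 bases in the knockdowns. These quantities moved with the groups, and their part in the results below was not tested. Hepatocyte markers such as APOB and SERPINA1 and the epithelial keratins were present in all libraries, ALB stood at only 19.8 to 26.97 CPM, and COL3A1, a fibroblast marker, was at 0 in all 6. The other lineage markers were low: the summed fibroblast list stood at 0.92 to 2.59 CPM, the endothelial list at 3.34 to 4.90 CPM, and the immune list, nearly all of it LYZ and CD68, at 48.7 to 61.0 CPM, with overlap between the groups in each sum. Single markers moved within these sums. PTPRC, which marks leukocytes, stood at 0.32, 0.42 and 0.56 CPM in the controls and rose to 1.9, 2.09 and 1.48 CPM in the knockdowns (log2 2.01, adjusted p = 0.0223, edgeR). TTR, a hepatocyte marker, rose from 1.46, 1.19 and 1.34 CPM to 3.1, 4.14 and 5.22 CPM (log2 1.54, adjusted p = 0.0243, edgeR).

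The introns kept in members could be read for the 1952 members (74.5%) that are also in GENCODE 29, on GRCh38. Splice sites of the longest kept intron are shown for 8 members whose genes rose in the test of members summed per gene, described below, and for DYNC1H1-237, which fell in the test of single transcripts. Capitals mark intron bases and lower case the flanking exon bases, read 5′ to 3′ on the gene's strand. Intron positions (GRCh38) are chr12:52901220-52901863 (minus strand) in KRT8, chr11:57328427-57330092 (minus) in SSRP1, chr5:179614960-179616125 (minus) in HNRNPH1, chr16:30067662-30068645 (plus) in ALDOA, chr12:54399948-54400845 (minus) in ITGA5, chr19:48617424-48619140 (minus) in RPL18, chr15:78540464-78541904 (plus) in PSMA4, chr22:17141234-17143097 (minus) in HDHD5 and chr14:102016490-102016765 (plus) in DYNC1H1.
KRT8-203 donor: caaGTGAGC
KRT8-203 acceptor: TGTAAGTCTTTTCCTCACAGgta
SSRP1-202 donor: ggaGTGAGT
SSRP1-202 acceptor: CCTGGCTTGTTCTCTGGCAGgtt
HNRNPH1-227 donor: acgGTAAAG
HNRNPH1-227 acceptor: TCAAATTGATCTCTTTGCAGgta
ALDOA-208 donor: aagGTAAGG
ALDOA-208 acceptor: TGTTACCCTGACCCCAACAGgta
ITGA5-211 donor: gagGTGAGA
ITGA5-211 acceptor: CCCAACACTTTCTTTTATAGttg
RPL18-203 donor: atgGTGAGC
RPL18-203 acceptor: CTGTCTTCCCGTCCCTCCAGtta
PSMA4-215 donor: tcgGTGAGC
PSMA4-215 acceptor: ATCTGATTTTCTTTTTACAGgaa
HDHD5-205 donor: aagGTAAGA
HDHD5-205 acceptor: TGCGCCTCTGTTCTTTAAAGggg
DYNC1H1-237 donor: gagGTGAGC
DYNC1H1-237 acceptor: ACTTCCATCTCCGTGTGTAGgtg

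All 9 introns shown were taken from those that begin with GT and end with AG, the ends of introns removed by the major spliceosome. Of the 2775 distinct introns of coding transcripts that lay wholly inside an exon of a member, 2710 (97.7%) had these ends, 34 had GC and AG, and 4 had AT and AC. Their median length was 552 bases. The AG nearest upstream of the acceptor lay at a median of 29 bases from it, and a median of 77.8% of the last 18 intron bases before the AG were pyrimidines. These medians were 29 bases and 77.8% for introns in members that were higher in all knockdowns, and 33 bases and 77.8% for those in members that were lower in all knockdowns. For introns in members whose groups overlapped they were 30 bases and 72.2%.

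Summed over all host genes, members took a larger part of the gene's counts after SLU7 knockdown. They held 11.6%, 12.6% and 13.5% of the host genes' estimated counts in the controls, against 20.2%, 18.7% and 17.1% in the knockdowns, which is 12.6% ± 0.978 against 18.7% ± 1.58 (SD, n = 3 each), or 1.48-fold. The groups did not overlap. Protein-coding transcripts of the same genes took 61.4%, 65.7% and 64.1% in the controls, against 54.2%, 54.7% and 53.8% in the knockdowns, also without overlap. Retained-intron transcripts outside the rule in these genes went from 9.21% ± 1.62 to 11.5% ± 0.771, with overlap, since control replicate 1 (11.1%) stood level with knockdown replicates 1 (11.0%) and 2 (11.1%). Transcripts marked for nonsense-mediated decay stood at 10.3% ± 1.16 and 10.7% ± 0.996. Exact permutation of 3 against 3 libraries cannot give a p below 0.1, so no p is attached to these sums. Without the 20 host genes with most counts the members' part was 12.4% ± 1.25 in controls and 18% ± 1.69 in knockdowns. In TPM, which divide each count by effective length, it was 4.07%, 5.33% and 5.68% against 7.87%, 6.98% and 5.83%, so knockdown replicate 3 lay close to control replicate 3.

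**Figure D1:**
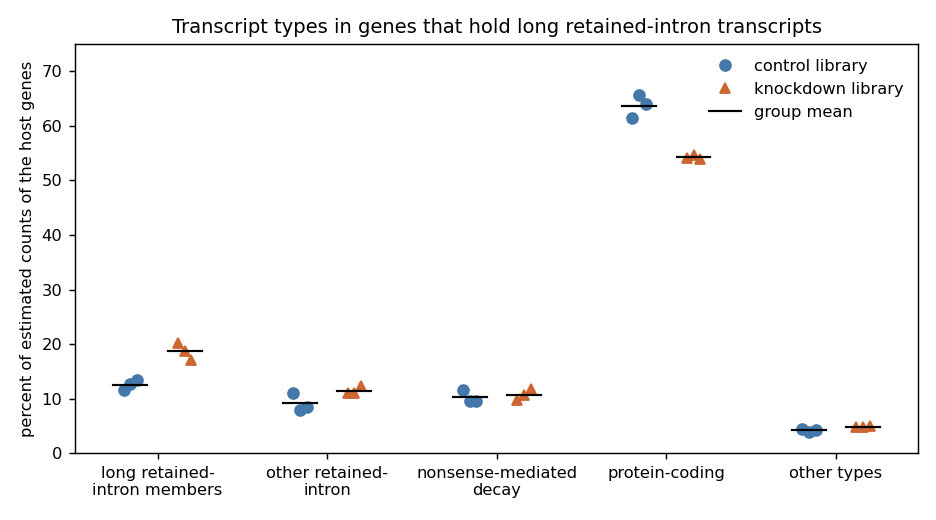
Percent of the estimated counts of the host genes (y axis) taken by each annotated transcript type (x axis) in the 3 control libraries (circles) and 3 knockdown libraries (triangles), with lines at group means. Long retained-intron members lie between 11.6% and 13.5% in the controls and between 17.1% and 20.2% in the knockdowns, while protein-coding transcripts lie lower in every knockdown.

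The same held transcript by transcript. The share of a member in its gene, meaning its percent of the gene's estimated counts, could be computed in all libraries for 2621 members. Its median over members was 8.90%, 10.4% and 11.2% over the control libraries and 14.97%, 13.96% and 12.6% over the knockdown libraries. The mean share was higher in knockdown for 1908 members (72.8%), and the median change was 2.38 percentage points. That median was 0.924 points for shares of the gene's TPM and 5.32 points when a member was set against the coding transcripts alone. Every knockdown lay above every control for 718 members (27.4%), and below every control for 83 (3.17%). Over all 38899 transcripts with the same minimum count and a share, 12.4% were higher and 9.62% lower without overlap. The count of lower members rests on the libraries included: it was 241, 127, 171 and 139 without control replicate 1, control replicate 2, knockdown replicate 1 and knockdown replicate 2, and fewer libraries make non-overlap easier by construction.

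Other transcript types set the scale. Shorter retained-intron transcripts of coding genes were higher without overlap in 24.3% of 4466 and lower in 5.49%, so the direction was shared with the short transcripts of the type. Protein-coding transcripts of at least 2500 bases were higher in 7.13% of 11358 and lower in 12.4%, and those in the host genes were higher in 6.49% and lower in 16.1%. Decay transcripts were higher in 11.6% and lower in 8.52% of 3463. Length bands within the rule gave similar percents: members of 2500 to 3000 bases were higher without overlap in 28.3%, and those of 6000 bases or more in 27.3%. The percent was higher in deeper bands, from 18.6% of members with 60 to 120 counts to 28.9% of those with 120 to 300 and 36.9% of those with 300 or more, while lower members stayed between 2.52% and 3.81%. Members at 0 counts numbered 102, 70 and 71 in the controls, against 41, 75 and 104 in the knockdowns, so the groups overlapped, with the fewest in knockdown replicate 1 and the most in knockdown replicate 3.

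**Figure D2:**
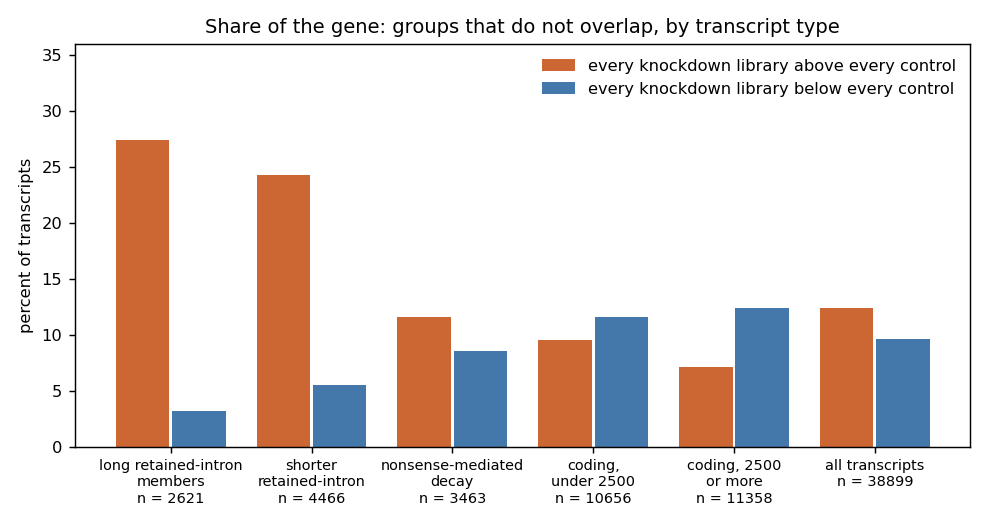
Percent of transcripts (y axis) whose share of the gene lay above (orange) or below (blue) all controls in every knockdown library, by transcript type (x axis, with the number of transcripts). Long members reach 27.4% higher and 3.17% lower, whereas coding transcripts of at least 2500 bases show 7.13% higher and 12.4% lower.

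Single members seldom passed a test. The usage test of edgeR compares the change of a transcript with that of the other transcripts of its gene. Among the 2396 members it covered, 1 rose and 5 fell at an adjusted p under 0.05, where the background over 36194 transcripts was 0.365% higher and 0.525% lower. The number depended on the libraries: 13 rose and 12 fell without control replicate 1, and 3 rose and 3 fell without knockdown replicate 2. Those that rose numbered 2 without control replicate 2, 4 without control replicate 3 and 2 without knockdown replicate 3. Limma's diffSplice, an alternative test, called 21 higher and 0 lower. The background percents above are those of edgeR, and none is given for diffSplice. The median log2 change relative to the gene was 0.41 over the members tested and 0.05 over all transcripts tested.

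The called members described here were present in one group and absent or nearly absent in the other. Each reached the minimum of 60 summed counts through the group where it was present, so its presence there is partly set by the rule that chose the members. Limma's diffSplice called none of these 4. SPAG9-219, from the gene for a scaffold protein of JNK signalling, rose: it held 0.0309%, 0% and 0% of its gene in the controls (0.339, 0 and 0 counts), against 19.5%, 10.6% and 12.2% in the knockdowns (adjusted p = 0.000867, edgeR). For SPAG9-219 the adjusted p was 0.477 with diffSplice and 0.0516 (edgeR) without control replicate 1 and knockdown replicate 3 together. VCP-235, from the gene for the ATPase p97 that extracts proteins for degradation, fell from 4.76%, 3.56% and 2.89% to effectively 0 counts in all 3 knockdowns (adjusted p = 6.10e-05, edgeR; 0.244 with diffSplice). ZDHHC14-206, from a palmitoyltransferase gene, fell from 26.5%, 43.6% and 24.6% to 0%, 0% and 0.0158% (adjusted p = 0.000465, edgeR; 0.326 with diffSplice). No library of one group reached the range of the other in these 3 transcripts, and no fold is given because one group was at or near 0.

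DYNC1H1-237, from the gene for the heavy chain of cytoplasmic dynein, fell from 5.87%, 5.80% and 10.5% to 0.137%, 0.000186% and 0%, with adjusted p = 0.00391 (edgeR; 0.645 with diffSplice). Leaving out knockdown replicate 2 or 3 raised its adjusted p to 0.107 and 0.0658 (edgeR). The groups did not overlap. VCP-235, ZDHHC14-206 and DYNC1H1-237 thus went against the direction of most members. SPAG9-219 and ZDHHC14-206 keep no whole intron of a coding transcript, and only 5.4% of the bases of SPAG9-219 lie outside coding exons, so most of its sequence is shared with coding transcripts.

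A further 3 members with the smallest p among the higher ones were absent from the controls or nearly so, without passing the test. They too met the count minimum through the knockdown libraries alone, which partly fixes this pattern. IPO4-214, from an importin gene, was at 0 in every control and reached 19.1%, 21.9% and 4.10% of its gene in the knockdowns (adjusted p = 0.0665, edgeR). NDUFS3-214, from a gene for a core subunit of respiratory complex I, was also at 0 in every control, and reached 44.6%, 23.9% and 36.01% in the knockdowns, with adjusted p = 0.0709 (edgeR). SCARB2-213, from the gene for a lysosomal membrane protein, stood at no more than 0.1001% in the controls and at 6.48%, 3.95% and 4.54% in the knockdowns, with adjusted p = 0.0803 (edgeR). In all, 5 members had 0 counts in every control and 10 in every knockdown.

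A test chosen after the single-transcript results were seen summed each gene into 5 classes: long retained-intron members, other retained-intron, protein-coding, decay and other transcripts. Most host genes (1457 of 1874) hold a single member, and there the test pooled only the other transcripts. In this test the long retained-intron class rose in 33 host genes and fell in 0 of 1742, against 0.826% higher and 0.329% lower over all 17914 classes tested. At an unadjusted p under 0.05 (edgeR), 244 were higher and 14 lower, and limma's diffSplice called 93 higher and 1 lower. The percents over all classes belong to the adjusted edgeR calls, and none is given for these other counts. Summed per gene, members took a median of 18.02% of a host gene in control libraries and 23.2% in knockdown libraries. Every knockdown lay above every control in 542 of 1872 host genes and below in 56, against 12.4% higher and 11.6% lower over all 20841 classes. The class was at least 10 percentage points higher in 472 host genes and at least 10 points lower in 98. No percent over all classes is given for that cutoff. The calls rest on few libraries: 62 genes were called higher without control replicate 1, 11 without control replicate 2, 6 without control replicate 3, 6 without knockdown replicate 1, 4 without knockdown replicate 2 and 14 without knockdown replicate 3. SPAG9, KRT8 and SSRP1 were called in all 6 of these fits, 7 genes in at least 3 of them, and PSMA4 in none. In some of the 33 the members met the count minimum almost only through the knockdowns. Their rise is thus partly set by the rule that chose the members. Examples are SPAG9 (0.0309%, 0% and 0% of the gene in the controls), KNL1 (0%, 4.66% and 0%) and TACC1 (1.85%, 0% and 1.83%).

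**Figure D3:**
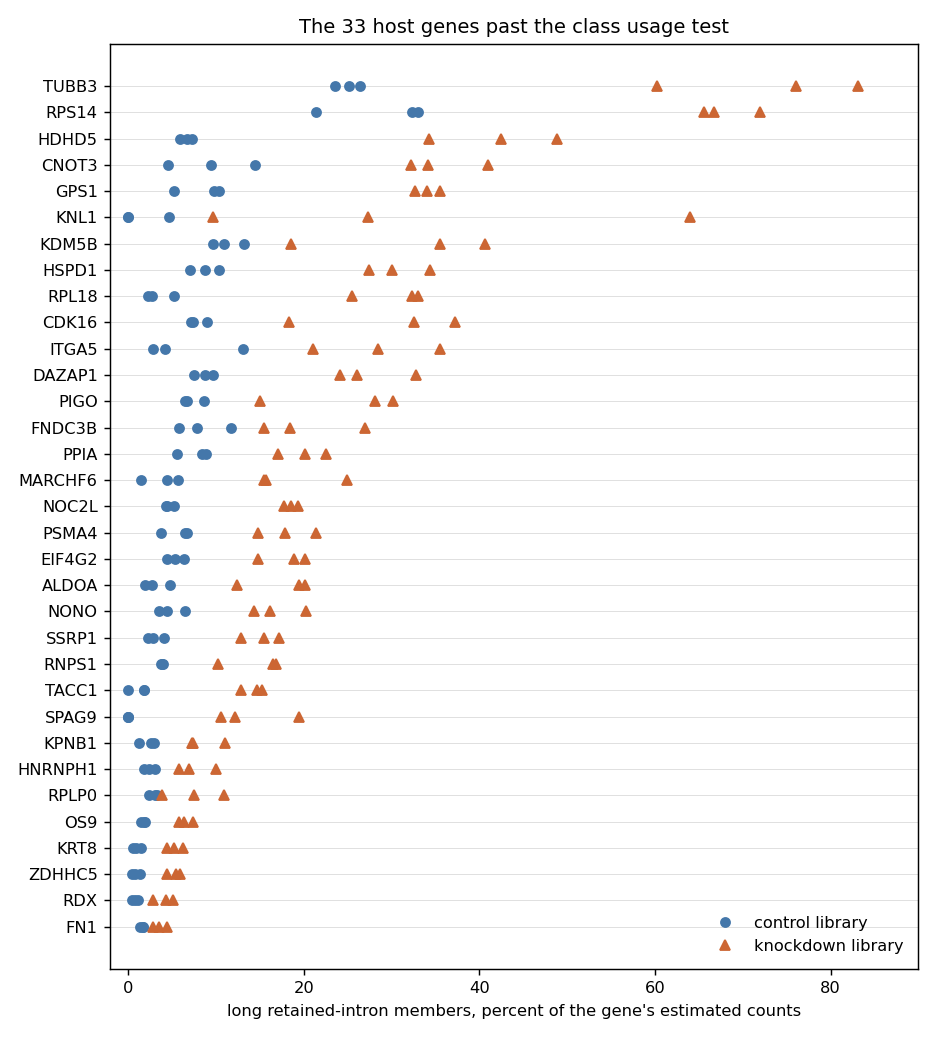
Percent of the gene's estimated counts taken by its long retained-intron members (x axis) in each of the 33 host genes past the class test (y axis), with 3 control libraries (circles) and 3 knockdown libraries (triangles) each. Each gene's knockdown libraries lie above its controls, with the widest spread in KNL1 (9.66% to 63.9%) and the narrowest gap in RPLP0 (3.32% against 3.90%).

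RNA-binding and translation genes formed one part of the 33. NONO, a paraspeckle protein that binds RNA, holds 8 members, which together took 3.56%, 6.45% and 4.48% of the gene in the controls, against 14.3%, 20.3% and 16.1% in the knockdowns (log2 change relative to the gene 1.88, SE 0.34, adjusted p = 0.00457, edgeR). HNRNPH1, an hnRNP that binds G-rich RNA and acts in splicing, went from 1.77%, 2.43% and 3.08% to 10.0%, 6.89% and 5.86% (log2 1.66, SE 0.29). DAZAP1, another RNA-binding protein, went from 7.48%, 8.74% and 9.64% to 24.1%, 32.8% and 26.04% (log2 1.67, SE 0.36). The lowest knockdown lay clear of the highest control in each of the 3 genes. RNPS1, a protein that joins the exon junction complex, went from 3.71% to 4.02% across the controls to 10.2% to 16.9% across the knockdowns. CNOT3, a subunit of the CCR4-NOT complex that shortens polyA tails, went from 4.52% to 14.5% to a range of 32.2% to 41.0%. EIF4G2, a translation initiation factor, went from 4.45% to 6.36% to a range of 14.8% to 20.2%.

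Ribosomal proteins supplied 3 of the 33. RPL18-203 is a single exon that holds 10 distinct introns of coding transcripts, where introns with different ends count separately. It took 2.72%, 5.21% and 2.30% of RPL18 in the controls, against 25.5%, 32.4% and 33.0% in the knockdowns (log2 3.06, SE 0.65, adjusted p = 0.0263, edgeR). RPS14-205 took 33.0%, 21.4% and 32.3% against 65.6%, 66.7% and 71.9%, and thus became the larger part of the gene's counts in every knockdown. RPLP0-226 took 3.09%, 2.43% and 3.32% against 11.0%, 7.47% and 3.90%, so knockdown replicate 3 lay just above the controls. RPL18, RPS14 and RPLP0, and also KRT8, PPIA and HSPD1, have processed pseudogenes elsewhere in the genome, so the split of their reads is uncertain.

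Chromatin, cell division and transport genes were also among the 33. SSRP1, a subunit of the histone chaperone FACT, went from 2.32%, 4.11% and 2.83% to 15.5%, 17.2% and 12.9% (log2 2.30, SE 0.29, adjusted p = 0.00169, edgeR). KDM5B, a histone H3 lysine demethylase, went from 9.71%, 11.0% and 13.2% to 40.6%, 35.6% and 18.6%, with knockdown replicate 3 the lowest of the knockdowns. KNL1, the kinetochore scaffold, went from 0%, 4.66% and 0% to 27.4%, 9.66% and 63.9%, the most variable of these genes. KPNB1, importin beta, went from a range of 1.28% to 2.94% to one of 7.26% to 11.1%. NOC2L, a nucleolar protein, went from 4.37% to 5.23% across the controls to 17.7% to 19.4% across the knockdowns.

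Genes of the cytoskeleton and of adhesion included KRT8, the keratin of simple epithelia. KRT8-203 took 0.546%, 1.504% and 0.944% in the controls, against 5.18%, 4.49% and 6.26% in the knockdowns (log2 2.47, SE 0.35, adjusted p = 0.000801, edgeR). TUBB3-216, from a beta-tubulin gene, took 26.4%, 23.5% and 25.2% against 76.1%, 83.1% and 60.2%. ITGA5-211, from the gene for the integrin alpha subunit that binds fibronectin, took 13.1%, 2.79% and 4.18% against 21.0%, 28.4% and 35.5%. FN1-224, from the fibronectin gene, took 1.76%, 1.34% and 1.68% against 4.44%, 3.58% and 2.80%. The keratin and fibronectin members thus stayed a small part of their gene, whereas the tubulin member became most of it. TUBB3, ITGA5 and FN1 fell as genes (log2 −1.12, −1.01 and −1.18, adjusted p = 0.0139, 0.0233 and 0.0153, edgeR), and KRT8 did not pass. The levels of TUBB3-216 are given below. RDX, TACC1, SPAG9 and FNDC3B also passed.

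Protein folding and turnover were represented by HSPD1, PPIA, PSMA4, OS9, MARCHF6 and GPS1. HSPD1, the mitochondrial chaperonin, holds 3 members that together took 7.07%, 8.80% and 10.4% in the controls, against 34.4%, 30.04% and 27.5% in the knockdowns (log2 1.81, SE 0.36, adjusted p = 0.0114, edgeR). PPIA, the prolyl isomerase cyclophilin A, went from a range of 5.56% to 8.86% to one of 17.1% to 22.6%. PSMA4, an alpha subunit of the proteasome core, went from 3.81%, 6.48% and 6.75% to 14.8%, 17.9% and 21.4%. GPS1, a subunit of the COP9 signalosome that acts on ubiquitin ligases, went from 5.19%, 9.75% and 10.4% to 34.1%, 32.6% and 35.5%. In all 4 the groups lay apart. OS9 and MARCHF6 act in degradation at the endoplasmic reticulum and reached no more than 7.41% and 24.95% in any library. The glycolytic enzyme gene ALDOA went from 4.75%, 1.90% and 2.77% to 12.4%, 19.5% and 20.2%. The rest of the 33 were ZDHHC5, HDHD5, CDK16 and PIGO.

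A share can rise because the member rises or because the other transcripts fall. For this, CPM were also scaled by the TMM factors of edgeR, unlike those given above. The summed members of 30 of the 33 genes were higher in every knockdown than in every control, and the exceptions were FN1, FNDC3B and PIGO. The rest of the gene was lower without overlap in 24 of the 33 and higher in 1, CNOT3. TUBB3-216 stood at 3.59, 4.16 and 3.38 CPM in the controls, against 4.80, 5.67 and 4.50 CPM in the knockdowns. The other transcripts of TUBB3 fell from 9.98, 13.5 and 10.0 CPM to 1.51, 1.15 and 2.97 CPM. SSRP1 members stood at 3.98, 5.87 and 4.03 CPM in the controls, against 17.5, 19.7 and 17.4 CPM in the knockdowns, and its other transcripts at 168, 137 and 138 CPM against 95.1, 95.1 and 118 CPM. In FN1 the member stood at 163, 147 and 161 CPM against 184, 161 and 128 CPM, while its other transcripts went from 9092 to 10870 CPM in the controls to 3957 to 4441 CPM in the knockdowns. FN1 thus shows a rise in share with overlapping levels of the member itself. RPS14 shows the reverse case: its member went from 44.9, 28.9 and 39.5 CPM to 135, 182 and 236 CPM, and its other transcripts overlapped between the groups.

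The level of each member was tested as well. Of 2548 members tested, 0 rose or fell at an adjusted p under 0.05 in edgeR, where the background over 43128 transcripts was 0%. At an unadjusted p under 0.05 (edgeR), 413 were higher and 67 lower. Over all 36837 tested transcripts with the same minimum count and a share, 2772 were higher and 3403 lower at that threshold. DESeq2 called 150 higher and 22 lower, against a background of 2.59% higher and 3.94% lower over 43034 transcripts. Host genes as a whole moved both ways: 157 of 1872 were called higher and 183 lower, against 5.93% and 7.93% over all 17109 genes, with a median log2 change of 0.01. Offsets for effective length gave 78 higher and 52 lower. Calls of host genes depended on the libraries, with 319 higher and 286 lower without control replicate 1, 43 and 50 without control replicate 2, 51 and 59 without control replicate 3, 41 and 29 without knockdown replicate 1, 0 and 0 without knockdown replicate 2 and 85 and 94 without knockdown replicate 3. Among the 542 host genes whose members were higher without overlap, 29 were called higher and 62 lower, with a median log2 change of −0.07. A larger retained-intron share therefore occurred in host genes of either direction.

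Members were then grouped by the function of the host gene, using 27 gene lists. In 12 members of ribosomal protein genes, 8 were higher without overlap and 0 lower. In 36 members of hnRNP and related genes the counts were 17 and 0, in 32 of mRNA export and nuclear pore genes 15 and 0, and in 56 of translation factor and tRNA synthetase genes 26 and 0. These shares, from 46.4% to 66.7%, stand beside 27.4% for all members, and the members of a list often share a gene. Chromatin genes gave 33 and 1 of 92, the proteasome 8 and 1 of 20, and lipid and sterol metabolism 7 and 0 of 17. Other lists stood near the value for all members: solute carriers and ABC transporters gave 21 and 1 of 74, DEAD and DEAH box helicases 12 and 2 of 42, and mitosis, centrosome and cohesin genes 13 and 1 of 45. Zinc finger genes gave 4 and 4 of 50, SR protein kinases and related genes 1 and 2 of 12, and kinase and phosphatase signalling 10 and 4 of 69. SR proteins and related factors gave 3 and 0 of 18, and genes known for introns detained in the nucleus 1 and 1 of 10. The smallest lists, nonsense-mediated decay with exon junction factors and hepatocyte genes, gave 3 and 0 of 6 and 2 and 0 of 3. No test was made between lists.

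**Figure D4:**
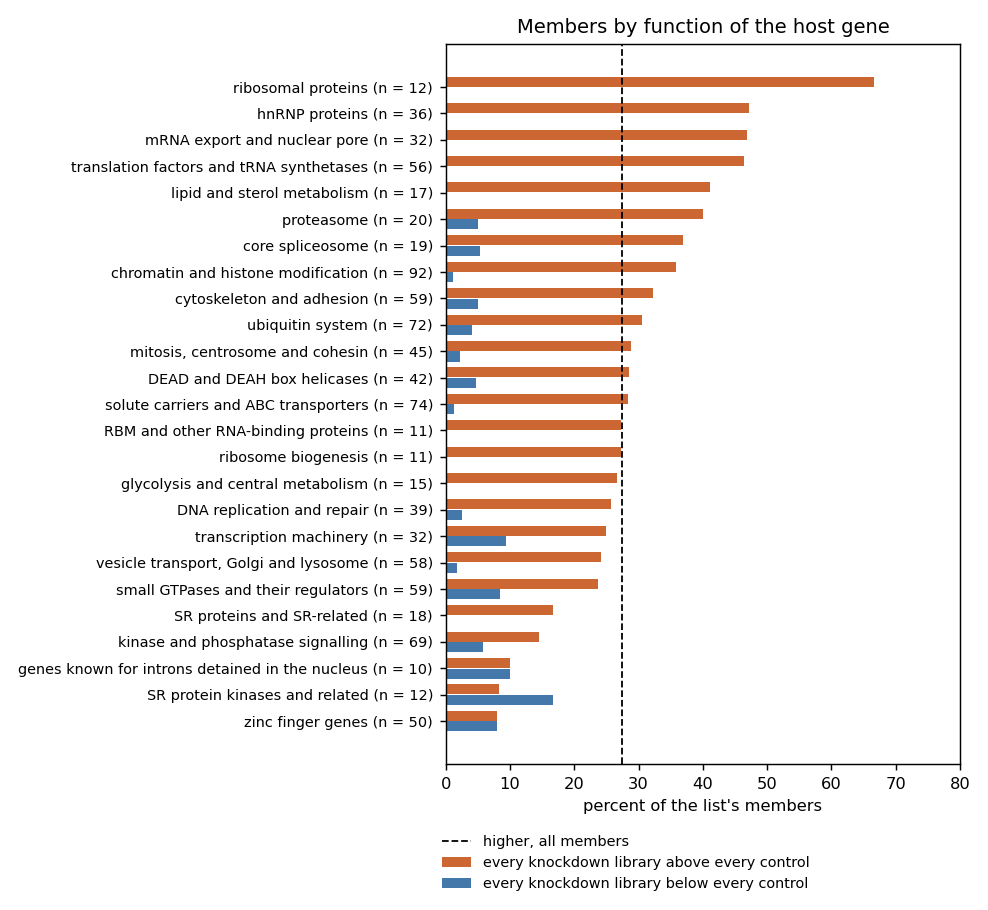
Percent of the members of each gene list with at least 10 members (y axis, number in brackets) whose share of the gene lay above (orange) or below (blue) all controls in every knockdown. The dashed line marks 27.4%, the value for higher members among all members, which ribosomal proteins (66.7%) exceed and zinc finger genes (8%) do not reach.

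Single members are shown library by library, each the one with the smallest usage p in its list. They are thus extremes of their lists and not typical members. SNRNP200-203, from the gene for a helicase of the U5 particle, took 1.48%, 1.43% and 1.99% of its gene in the controls, against 6.46%, 7.49% and 5.59% in the knockdowns, with adjusted p = 0.134 (edgeR). TRA2B-214, from the gene for a splicing activator related to SR proteins, took 15.4%, 13.6% and 19.04% against 30.5%, 34.7% and 33.95%. The groups did not overlap in either, and neither passed the usage test. NCL-221, from the gene for the nucleolar protein nucleolin, took 1.72%, 3.11% and 3.17% against 12.3%, 18.6% and 14.0%. DDX5-221, from an RNA helicase gene in the list of genes known for detained introns, took 3.88%, 1.90% and 2.37% against 7.98%, 7.68% and 5.38%. SREBF1-203, from the gene for a transcription factor of lipid synthesis, took 7.63%, 9.36% and 5.74% against 24.2%, 28.3% and 27.8%. These 5 were higher in share in every knockdown. In the order given, their levels changed by log2 1.98, 1.93, 3.07, 1.51 and 0.41, none with an adjusted p under 0.05 (edgeR). As genes, SREBF1 fell (log2 −1.28, adjusted p = 0.00971, edgeR) and TRA2B rose (log2 1.02, adjusted p = 0.0121, edgeR). SNRNP200, NCL and DDX5 did not pass the gene test. The members chosen in this way that had a lower mean in the knockdowns came from the zinc finger, mitosis and signalling lists. ZNF519-213, from a zinc finger gene, took 14.7%, 41.7% and 43.97% in the controls, against 20.3%, 0% and 0% in the knockdowns. KIF5C-237, from the gene for a kinesin heavy chain, took 8.81%, 33.8% and 31.9% against 13.1%, 0.000134% and 0%. STAT2-220, from the gene for a transcription factor of interferon signalling, took 24.5%, 35.6% and 16.8% against 21.2%, 4.53% and 0%. The groups overlapped in these 3 through knockdown replicate 1. None of the 8 had an adjusted usage p under 0.05.

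All genes of these lists were also counted by level, whether or not they hold a member, beside 5.93% higher and 7.93% lower over all 17109 genes. Of 35 tested genes of SR proteins and SR-related factors, 13 rose and 0 fell, and of 46 hnRNP genes 13 rose and 2 fell. The core spliceosome had 12 higher and 2 lower of 66, DEAD and DEAH box helicases 10 and 0 of 55, and nonsense-mediated decay and exon junction factors 3 and 0 of 19. The list of RBM and other RNA-binding proteins had 9 higher and 3 lower of 94, mRNA export and nuclear pore genes 9 and 1 of 64, and ribosome biogenesis 20 and 0 of 63. Ribosomal protein genes had 7 higher of 82, near the percent over all genes, and 0 lower. Translation factors and tRNA synthetases moved both ways, with 8 higher and 11 lower of 119. Solute carriers and ABC transporters had 5 higher and 77 lower of 374, while their members had 21 higher and 1 lower in share without overlap. These counts rest on the libraries: without control replicates 1, 2 and 3 and knockdown replicates 1, 2 and 3 in turn, SR genes called higher numbered 22, 3, 5, 2, 0 and 7, and solute carriers called lower 130, 20, 26, 13, 0 and 36. In the other lists named here the higher count was largest without control replicate 1 (21 hnRNP and 32 core spliceosome genes) and 0 without knockdown replicate 2.

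The members with most counts did not pass the usage test of single transcripts. FN1-224, with 6412 counts, is among them, and its gene passed the class test as described above. RELN-213, from the gene for the secreted glycoprotein reelin, had 10790 counts and took 29.04%, 23.7% and 24.4% of the gene in the controls, against 25.7%, 36.4% and 29.9% in the knockdowns. OGT-210, from the gene for the enzyme that adds N-acetylglucosamine to proteins and known for a detained intron, took 68.5%, 68.5% and 67.8% against 67.2%, 71.0% and 70.5%. CP-212, from the gene for the copper carrier ceruloplasmin, took 61.3%, 65.9% and 58.3% against 73.2%, 76.5% and 76.8%. Of these 3 only CP-212 was free of overlap, and none passed the usage test (adjusted p = 1.0 each, edgeR). DDB1-241, from the gene for a ubiquitin ligase adaptor, took 71.5%, 54.5% and 39.5% against 34.3%, 45.7% and 43.96%, with overlap. The level of OGT-210 and that of its gene changed by −0.76 and −0.67 on the log2 scale. The level test called 0 of 43128 transcripts, so it cannot set OGT-210 apart from its gene. The gene's change passed the test of genes (adjusted p = 0.0308, edgeR). That call was lost in each fit leaving out a library other than control replicate 1, with adjusted p from 0.0836 to 0.115.

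In some host genes the member was nearly the whole signal. ADAM32-205, AC013394.1-202, CFAP69-210, OAS1-213 and EFCAB12-202 had the highest control shares among host genes with at least 300 counts. They stood between 82.1% and 100% in the controls and between 83.5% and 99.5% in the knockdowns, with overlap in all 5. AC013394.1 as a gene rose (log2 1.46, adjusted p = 0.0086, edgeR; 0.0658 without knockdown replicate 2), so in this gene nearly all of the change in gene level was change of the member. OAS1 is an interferon-induced enzyme gene, and its level did not pass the test (log2 −0.12).

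What members look like in the annotation varied. Members found in GENCODE 29 do not stand for the rest, since their median control share was 13.2%, against 5.66% for those not found. Of the 1952 found, 1166 (59.7%) kept at least 1 whole intron of a coding transcript. A median of 52.2% of a member's bases lay outside coding-transcript exons. Of these members 1142 (58.5%) began outside such exons, and 661 (33.9%) ended outside them. Groups free of overlap were more frequent among members that kept more introns, a description that was given no test. Introns with different ends were counted separately, so the number can also grow with the coding transcripts annotated for a gene. Every knockdown lay above every control in 21.4% of 786 members with no whole intron, 22.6% of 518 with 1, 32.6% of 494 with 2 to 4, and 41.8% of 153 with 5 or more. The share lower without overlap was 3.69%, 3.67%, 3.44% and 1.31% in the same order. Within one band of depth, 300 counts or more, the higher percent was 23.3% of 301 members with fewer than 2 whole introns and 52.4% of 166 with 2 or more. Among members with 60 to 120 counts it was 17.7% of 470 and 18.9% of 212.

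**Figure D5:**
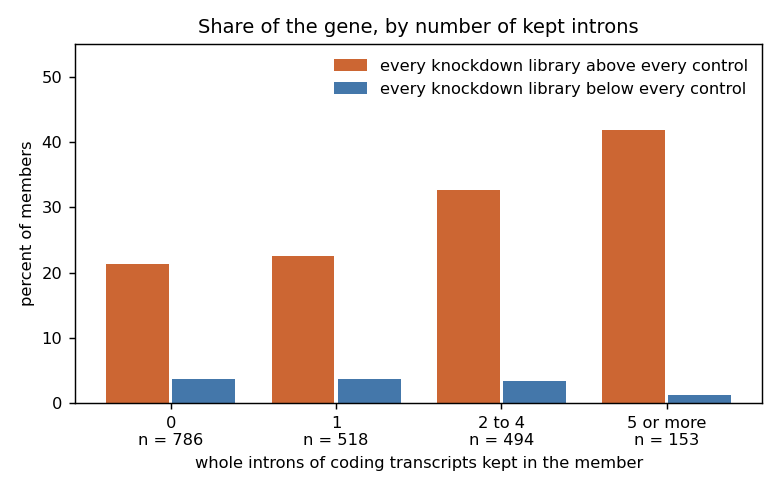
Percent of members found in GENCODE 29 (y axis) whose share of the gene lay above (orange) or below (blue) all controls in every knockdown, by the number of whole coding-transcript introns kept (x axis, with the number of members). The higher percent goes from 21.4% with no whole intron to 41.8% with 5 or more, and the lower percent does not exceed 3.69%. Introns with different ends count separately.

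Members with little sequence outside coding exons gave lower percents. Of 162 members with under 10% of their bases outside coding exons, 16.05% were higher and 4.94% lower without overlap, against 30.7% and 3.82% of 1022 members with at least 50% outside. An antisense gene overlapped 543 members (27.8%), whose reads cannot be told apart from antisense reads because the strand setting is not given. Of these members 26.2% were higher without overlap, and of the 1408 others 26.1%. Members not found in GENCODE 29 were higher in 31.0% of 670.

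The thresholds of the rule fell inside a continuous range. Just inside the length minimum was KAT8-204 (2500 bases; 18.9%, 10.2% and 8.46% against 21.5%, 18.2% and 44.2%). Just outside were EEF1G-203 (2496 bases; 1.68% to 5.04% against 18.2% to 31.6%) and NDUFB9-205 (2496 bases; 2.41% to 8.54% against 3.85% to 4.25%). Just inside the count minimum were NEDD4L-212 (0.636% to 1.99% against 0.875% to 1.38%) and MACROH2A2-209 (6.58% to 13.1% against 2.32% to 10.1%). Just outside it were NPAS2-212 (3.37% to 11.3% against 10.1% to 15.7%) and VIPR1-216 (16.1% to 24.8% against 16.3% to 25.1%).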

How the data were processed

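RNA-seq of polyA RNA (ScriptSeq kit, per the labels' protocols) was compared between 3 control and 3 SLU7 knockdown libraries. The build GRCh38 and the tools kallisto 0.46.1, sleuth 0.30.0, Trimmomatic 0.38 and FastQC 0.11.8 are listed without role or order, per the submitters' processing notes. The authors deposited an estimated count for each transcript, per the file headers. These are not normalized and not whole numbers, since reads that match several transcripts are divided among them. TPM values were deposited by the authors beside them, made from counts and effective lengths, per the file headers. Lengths and types came from the same files. Annotation release and strand setting: not given in the sources used here. The uncertainty of splitting reads was not modelled.

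Of 234485 records, 159 of the Y pseudoautosomal regions were added to those on X. Estimated counts were rounded and tested with edgeR 4.0.16 (R 4.3.3, filterByExpr with a minimum count of 10 and total of 15, TMM, quasi-likelihood, diffSpliceDGE for usage), with Benjamini-Hochberg adjustment at 0.05 over the whole table. The edgeR steps were tested on simulated data. Usage changes are log2 relative to the gene. Alternatives were a replicate block, RLE size factors, stricter or no filtering, leaving out libraries, effective length offsets, DESeq2 1.42.0, limma 3.58.1 diffSplice, and other definitions of the share. Structure came from GENCODE 29, counting distinct introns of coding transcripts of at least 30 bases inside a member's exon. Splice sites are from the same genome.

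Named were SLU7; the members past the usage test, or the 4 with the smallest p; the 5 with most counts; the 5 with the highest control share; 1 or 2 per gene list; and those nearest the thresholds. Genes past the class test, chosen after the results were seen, are named too. The members and the 27 lists were chosen with earlier results of these data known. Marker lists were used to check the cell type. Some transcripts that the naming rule selects are not reported here.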

Additional observations from a re-analysis of the deposited data

How the results depend on the processing

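The count of members past the usage test (1 higher, 5 lower) ranged from 1 to 13 higher and 3 to 12 lower when 1 library was left out. It was 3 higher with no filter, 21 higher and 0 lower with limma's diffSplice, and 22 higher and 13 lower without control replicate 1 and knockdown replicate 3. With the replicate number as a block, 2 were lower, and the adjusted p was 0.0663 for SLU7 and 0.0725 for DYNC1H1-237. Same-numbered libraries did not deviate together (r = −0.413, 0.109 and −0.368 across genes), so the numbers do not pair them. Members called in level (0) were 3 higher and 2 lower with no filter and 150 higher and 22 lower with DESeq2, and 0 in each fit that left out a library. Host genes (157 higher, 183 lower) became 0 and 0 with the replicate block, 0 to 319 higher and 0 to 286 lower with 1 library left out, 400 and 339 without those 2 libraries, and 78 and 52 with length offsets. The class test (33 higher, 0 lower) gave 14 with no filter, 2 with the replicate block, 93 higher and 1 lower with diffSplice, 72 higher and 2 lower without those 2 libraries, and 4 to 62 higher and 0 to 5 lower with 1 library left out. The 33 shared 31 genes with the 62, 28 with the 72 and 27 with the 93. The median change in share (2.38 points) was 0.924 as a share of TPM, 5.32 against coding transcripts alone, and 2.03 to 2.75 with 1 library left out. Counts of members free of overlap (718 higher, 83 lower) became 335 and 33 at a length of at least 4000, 49 lower with at least 120 counts, 1084 and 245 for shorter transcripts of the type, 1225 and 300 without those 2 libraries, and 831 to 1006 higher and 118 to 241 lower with 1 library left out. The usage change of RELN-213 reversed to −0.51 under diffSplice. Of the other values for single transcripts and genes, 721 stayed on their side of the threshold, 221 lost a call and 18 gained one. Depth limits members near 60 counts. The cause of these differences was not tested, apart from fewer libraries or transcripts where these were removed.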

Other observations

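The class test also covered classes outside the long retained-intron members. Other retained-intron transcripts, summed per gene, rose in 58 and fell in 3 of 3699 genes tested. Protein-coding transcripts rose in 1 and fell in 23 of 6625. Classes of decay transcripts moved both ways, with 30 higher and 25 lower of 2741. Within the host genes the coding class rose in 0 and fell in 16 of 1667, and the other retained-intron class rose in 16 and fell in 2 of 1014.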
